A study of Mus musculus with 4 samples.

Results

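Fos, Fosb, Jun, Junb, Jund, Egr1, Atf3 and Ier2 are immediate early genes, and Hspa1a and Hspa1b are the stress-inducible copies of the heat shock protein 70 family. These 10 genes were listed by name, with earlier results of these data known, from the 32285 genes of each count file, and all 10 were found once in every file. The cells were mouse muscle stem cells from MyoD-KI animals, grown for 5 days in a medium of DMEM, Ham's F12, fetal bovine serum and Ultroser G, and sorted for high MyoD-tdTomato signal, a red fluorescent reporter of the muscle transcription factor MyoD. All 4 deposited samples belong to this 1 group, carry the same genotype and culture treatment, and are labelled replicates 1 to 4. How many animals were used, and whether cells were pooled from several, is not given in the sources used here. Expression was measured with 10x Genomics 3′ single-cell libraries, in which each captured molecule carries a unique molecular identifier (UMI) and is counted once whatever the length of its transcript. Levels of different genes were therefore set side by side without scaling to length. Differences between genes in capture and in the assignment of reads were not tested.

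Immediate early genes are transcribed within minutes of a signal such as serum, growth factors or mechanical or enzymatic handling, without a need for new protein, through kinase cascades that act on serum response factor and CREB at their promoters. Fos and Jun family proteins pair to form the AP-1 transcription factor, and Egr1 is a zinc finger factor that induces its own corepressors. Hspa1a and Hspa1b are switched on by heat shock factor 1 when proteins unfold, for example on warming or cell isolation. In muscle tissue these genes are well known to rise during enzymatic dissociation and sorting, so a joint rise in the same cells is often read as a sign of handling.

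The start regions of 8 of the 10 genes were taken from the RefSeq promoter table for GRCm38.p6. No window was examined for Egr1 and Ier2, the pair with the highest correlation below. The 250 bases before the start site of 4 genes are shown because these genes take part in pairs described later. Fos and Junb are the AP-1 members that went with Egr1 in single cells, and Hspa1a and Hspa1b are neighbouring copies on chromosome 17. Capitals mark TGACG, the core of a CRE, the CREB-binding element, in Fos and Junb. They mark CCAAT in Junb, and GAANNTTC, the core of a heat shock element, together with CCAAT in the Hspa1 genes. In the Hspa1 genes CCAAT lies on the other strand and is printed as its complement.
Fos, chr12:85473640-85473889, plus strand: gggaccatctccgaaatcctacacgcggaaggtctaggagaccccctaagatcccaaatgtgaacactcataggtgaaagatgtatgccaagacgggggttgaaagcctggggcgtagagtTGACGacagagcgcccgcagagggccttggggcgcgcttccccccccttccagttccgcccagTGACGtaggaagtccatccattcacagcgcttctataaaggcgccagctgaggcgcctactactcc
Junb, chr8:84978749-84978998, minus strand: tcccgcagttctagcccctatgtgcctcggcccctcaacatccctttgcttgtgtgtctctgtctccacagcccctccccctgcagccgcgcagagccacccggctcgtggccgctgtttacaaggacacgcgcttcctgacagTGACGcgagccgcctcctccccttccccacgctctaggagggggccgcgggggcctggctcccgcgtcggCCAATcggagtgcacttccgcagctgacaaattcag
Hspa1a, chr17:34972157-34972406, minus strand: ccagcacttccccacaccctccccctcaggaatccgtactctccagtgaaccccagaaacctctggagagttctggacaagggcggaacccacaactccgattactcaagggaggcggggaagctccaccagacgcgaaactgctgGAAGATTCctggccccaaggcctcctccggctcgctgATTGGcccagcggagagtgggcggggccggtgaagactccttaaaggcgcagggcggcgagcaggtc
Hspa1b, chr17:34959239-34959488, minus strand: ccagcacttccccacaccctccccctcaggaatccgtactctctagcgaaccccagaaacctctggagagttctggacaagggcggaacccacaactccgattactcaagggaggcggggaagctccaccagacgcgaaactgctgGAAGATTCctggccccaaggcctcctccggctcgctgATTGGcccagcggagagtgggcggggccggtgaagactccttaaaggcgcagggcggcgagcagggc

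On either strand, TGACG was found in 17.8% of the 250-base windows of all 32851 promoters of that table. Fos held it 2 times, beginning 129 and 66 bases before the start site, Junb held it 106 bases before, Fosb 60 bases before and Atf3 7 bases before. The full palindrome TGACGTCA, which contains TGACG on both strands, was in none of the 8 windows and in 1.55% of all promoters. GAANNTTC was in 6.69% of all promoters and in 3 of the 8, namely Hspa1a and Hspa1b, each 104 bases before the start site, and Jun at 128 bases. CCAAT was in 33.8% of all promoters and in Jun, Junb, Hspa1a and Hspa1b. TATAAA was in 12.4% of all promoters and in Fos, 33 bases before the start site. The CArG box, the serum response factor element, was in 1.47% of all promoters and in none of the 8 windows, which reach only 250 bases back. RefSeq places the start of Jund away from that of GENCODE M21, so its window was not described further.

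The Hspa1a and Hspa1b windows were identical at 98.8% of 250 bases and differed at 3 positions, C44T, T47C and T249G. Positions are counted from 1 at the 5′ end, with the Hspa1a base first. The 2 genes lie 9951 bases apart in GENCODE M21 on GRCm38, both with a single exon. The build behind the authors' counts may differ. Over the whole Hspa1a transcript, 58.8% of its 50-base windows also occurred in Hspa1b. In the last 500 bases of each transcript, where 3′ libraries mostly read, 0 of 451 windows were shared. Reads from the shared stretch could not be assigned to 1 copy, so the split between both genes carries that uncertainty. On the opposite strand, 5 members overlap another gene in GENCODE M21, namely Jun, Junb, Jund, Atf3 and Hspa1a. The use of strand in counting is not given in the sources used here, and without it reads of such partners cannot be told apart.

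The 4 files held the same cells. Each pair shared 99.9% of the barcodes of the smaller file, and at least 99.98% of cells resembled their own barcode in another file more than a different barcode, so the files count as 1 sample and not as biological replicates. Values were computed per file and averaged, except where UMIs were summed over the 4 files, and no test was run. Intervals of shares from summed UMIs are binomial over cells, which are not replicates. Every other interval below covers counting error in 1 file only. Of 5944 barcodes present in all files, 5481 had a mean of at least 1000 genes and under 10% mitochondrial UMIs and were kept, at a median of 11049 UMIs per file. The 6 myoblast markers ranged from 17.0 to 1165 UMIs per 1000000 summed UMIs (CPM) and the 6 myocyte markers from 44.5 to 2898. Summed fibroblast, endothelial and immune markers came to 1.20, 1.07 and 0.779 CPM, the highest of each being Pdgfra at 0.499, Pecam1 at 0.939 and Cd68 at 0.732. Pericyte or smooth muscle markers summed to 17.2 CPM, with Abcc9 at 11.7, Rgs5 at 5.25 and Myh11 and Kcnj8 at 0.302 and 0.0303. No doublets were removed.

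Among the 10 genes the Jun family was the most abundant. Jun, the AP-1 subunit that most strongly activates transcription, stood at 176, 173, 176 and 177 CPM in the files of replicates 1 to 4, with a mean of 176 (95% Poisson interval 172 to 179). Jund, the family member that is transcribed constitutively in many cells, followed at 81.9 CPM (79.7 to 84.1), and Junb, which can oppose Jun, at 77.7 (75.6 to 79.9). The intervals of Jund and Junb overlapped only marginally. Every file read Jund (81.5 to 82.5) above Junb (77.3 to 78.3), but the files hold the same cells. The median of the 13133 genes with at least 50 UMIs per file was 16.4 CPM, and all 10 members passed that minimum.

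Egr1 came next at 34.1, 36.1, 35.5 and 35.6 CPM, with a mean of 35.3 (33.9 to 36.8). Ier2, a nuclear protein induced by growth factors, had a mean of 17.4 CPM (16.4 to 18.5), close to the median gene. Fos was far lower, at 6.86, 7.08, 7.89 and 6.94 CPM, with a mean of 7.19 (6.56 to 7.87), and exceeded only 31.8% of the tested genes. Fos is the member most often used as a marker of handling, and it was below the median gene here.

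The remaining members were scarce. Hspa1b stood at 3.11 CPM (2.70 to 3.57) and Hspa1a at 2.84 (2.44 to 3.27), with overlapping intervals. Fosb, the Fos relative that also pairs with Jun proteins, had 1.72 CPM (1.42 to 2.07), and Atf3, a stress-induced factor of the ATF/CREB family, had 1.5 (1.23 to 1.84), again overlapping. The 8 immediate early genes together made up 398 CPM and the 2 heat shock genes 5.95 CPM.

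Shares of cells followed the order of the levels. The only exception was Atf3 above Fosb after the thinning described next, with overlapping intervals (0.50 to 0.98% and 0.49 to 0.96%). After thinning every cell to 5000 UMIs per file, which left 5197 cells and dropped 284 shallower ones, Jun was seen in 52.9% of cells (51.5 to 54.2, exact binomial), Jund in 32.3% and Junb in 29.2%. Unthinned, these shares were 75.5%, 54.7% and 49.5%. Egr1 was seen in 12.3% of thinned and 19.8% of unthinned cells, Ier2 in 7.96% and 15.9%, and Fos in 3.30% (2.84 to 3.83) and 6.87%. In most cells no molecule of these 3 genes was captured. Hspa1a and Hspa1b reached 1.23% and 1.29% of thinned cells, or 2.91% and 3.24% unthinned, and Atf3 and Fosb 0.712% and 0.693%, or 1.64% and 1.92% unthinned. No cell type that lacks these genes was available to measure free RNA. The 463 barcodes left out by the filters, compared with mitochondrial UMIs taken out of the totals, had less Jun (113 against 182 CPM), Jund (34.9 against 84.9), Junb (34.6 against 80.6) and Egr1 (16.6 against 36.7). Ier2 was at 4.18 against 18.1 CPM there, from a mean of 2.25 UMIs per file, and Fos at 7.55 against 7.46 from 4 UMIs, too few to compare.

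Egr1 was the most unevenly spread by variance. Its variance over its mean across thinned cells (the Fano factor, 1 for pure counting noise) was 1.93, above 97.1% of tested genes, against 1.43 for Jun, 1.17 for Jund and a median of 1.05 over tested genes. The 10% of cells with the most Egr1 UMIs held 72.9% of them, against 66.6% for the less abundant Ier2, 36.8% for Junb, 32.6% for Jund and 29.5% for Jun. The 5 scarcest members, Fos, Fosb, Atf3, Hspa1a and Hspa1b, had all their UMIs (100%) in such a 10% of cells, since few cells held any. A cell with Egr1 in 1 file had it in another file in 67.5% of cases, against 8.02% for a cell without. For Fos these values were 35% and 4.80%, for Ier2 44.0% and 10.6%, and for Hspa1a 25.3% and 2.24%. Part of the molecules is shared between files, which adds to recurrence. Egr1 correlated with itself between files at r = 0.494 over 5197 cells, the highest of the 10, followed by Jun at 0.300, Junb at 0.242, Fos at 0.231, Ier2 at 0.230 and Hspa1a at 0.193.

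Differentiation was followed through Myog, the myogenin gene that marks the commitment of myoblasts to fuse. Cells were binned by their own Myog CPM into 361 cells at 0, 2102 above 0 and under 300, 460 from 300 to under 1000, 996 from 1000 to under 3000 and 1562 at 3000 and over. The members took different courses along this axis. Cells at Myog 0 were shallower, with a median of 8009 UMIs against 10682 at 3000 and over, while their mean mitochondrial share of 3.90% equalled the 3.90% there. The part of depth in these courses was not tested.

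Jund was higher in each bin from 300 CPM of Myog upward. It stood at 61.3 CPM (53.0 to 70.7) at Myog 0, 59.4 and 76.1 in the next bins, 95.8 at 1000 to under 3000 and 109 (105 to 114) at 3000 and over. Its 4 files read 61.9, 60.8, 63.4 and 59.4 in the lowest bin and 111, 108, 111 and 108 in the highest, without overlap. Junb took a shallower course, from 67.5 CPM (58.8 to 77.3) to 90.0 (85.6 to 94.5). Jun instead peaked in the middle, at 231 CPM (218 to 244) in cells of Myog 300 to under 1000, against 180 (165 to 195) at Myog 0 and 141 (135 to 146) at 3000 and over. Its 4 files spanned 227 to 240 in the middle bin and 138 to 144 in the highest.

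Egr1 had 2 high ends and a trough. It stood at 42.9, 50.6, 45 and 46.5 CPM in cells without Myog (mean 46.2, 39.0 to 54.4) and at 15.7, 17.3, 17.1 and 15.8 at Myog 300 to under 1000 (mean 16.5, 13.3 to 20.2). It then reached 50.9, 53.3, 55.0 and 53.2 at 3000 and over (mean 53.1, 49.7 to 56.6). All 4 files of the middle bin lay below all files of both ends. Ier2 was high only in the lower bins, with 26.1 CPM at Myog 0 (20.8 to 32.4), 23.8 below 300, 11.5 at 300 to under 1000, 10.2 at 1000 to under 3000 (8.58 to 12) and 14.1 at 3000 and over (12.4 to 16.0). Egr1 and Ier2 were thus both low in the bin of 300 to under 1000, where Jun was highest.

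The scarce members gave less resolved courses. Fos lay between 5.88 CPM (4.05 to 8.25) and 9.85 (6.71 to 14.0), the latter from 31 UMIs per file at Myog 0, with overlapping intervals. Atf3 went from 0.554 CPM at Myog 0, from 1.75 UMIs per file, to 2.36 (1.71 to 3.20) at 3000 and over. Fosb went the other way, from 2.79 CPM (1.26 to 5.34) to 0.782 (0.424 to 1.31). Hspa1a ranged from 1.78 to 3.43 CPM and Hspa1b from 2.77 to 3.73, and the intervals of all 5 bins overlapped for each.

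**Figure D1:**
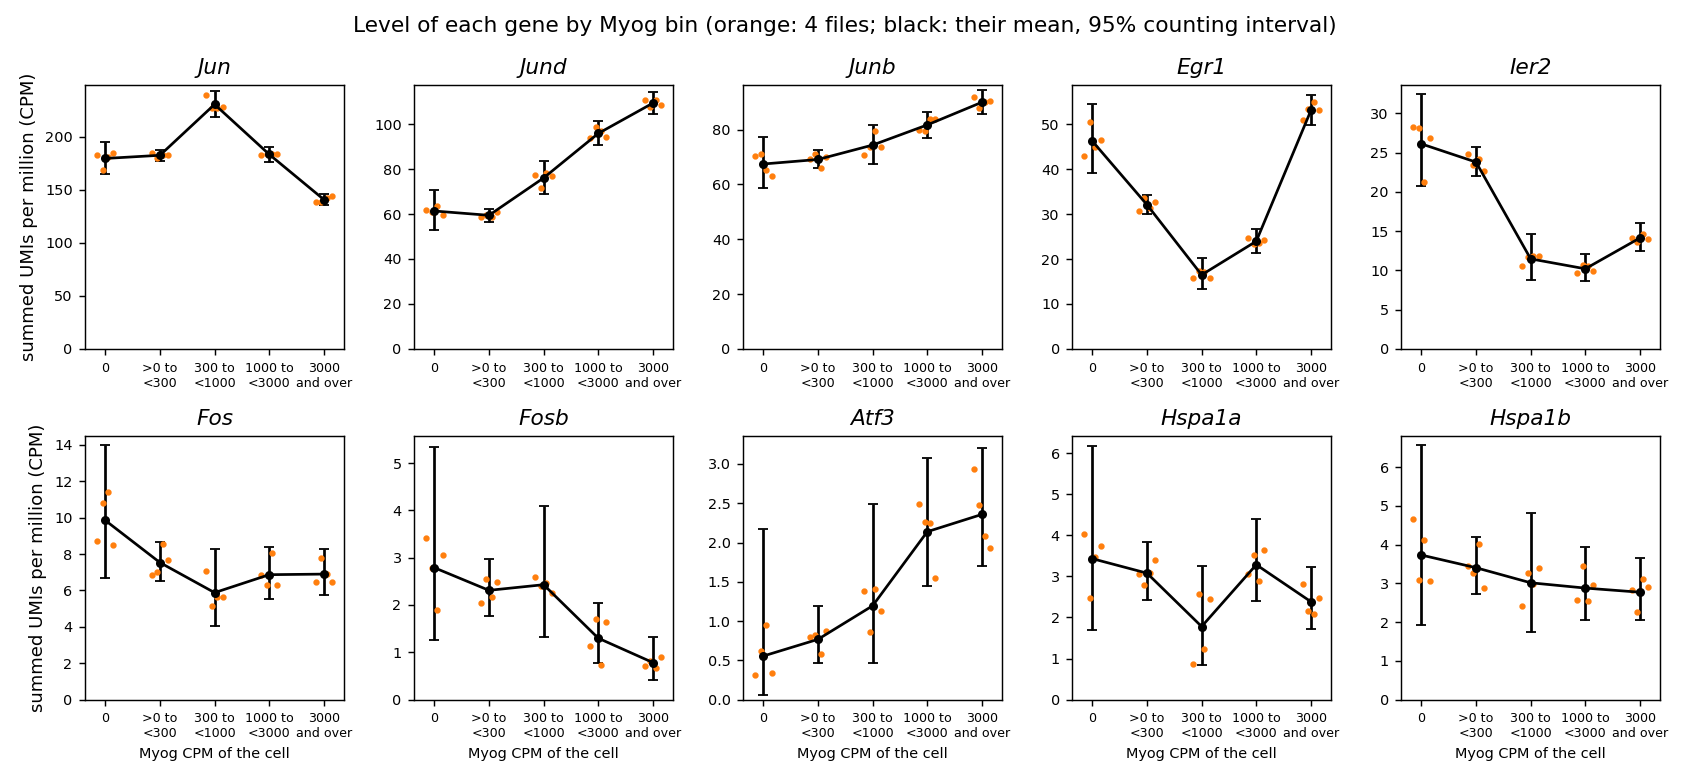
CPM (y axis) of each of the 10 genes in 5 bins of the cell's Myog CPM (x axis); orange points are the 4 files and black points their mean with the 95% counting interval. Jund reaches 109 CPM at the right, Jun peaks at 231 in the middle, and Egr1 dips to 16.5 there.

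The ends of the axis were set against each other for all genes, as the log2 ratio of CPM plus 1 in cells of Myog 3000 and over against Myog 0, and a ratio of at least 1 in either direction was called. Among the 10 members 1 was called higher and 1 lower, while 8.78% of all tested genes were called higher and 23.4% lower, so the members' count is near the background. Atf3 was the higher one, with a log2 ratio of 1.12 (0.02 to 1.71). Fosb was the lower one, at -1.07 (-1.86 to -0.23). Both calls rest on few UMIs: without the file of replicate 1 neither passed, at 0.97 for Atf3 and -0.98 for Fosb. The median of all genes was itself -0.34, and with that median subtracted Fosb was no longer called, at -0.73, while Jund was, at 1.16.

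Among the abundant members, Jund had a log2 ratio of 0.82 (0.61 to 1.04) and Junb 0.41 (0.20 to 0.62), while Jun was at -0.35 (-0.48 to -0.21), the level of the median gene. Ier2 was at -0.83 (-1.19 to -0.48). Egr1 was at 0.20 (-0.05 to 0.45), which hides its trough. Fos was at -0.45 (-0.98 to 0.09), Hspa1a at -0.38 and Hspa1b at -0.32, all with intervals that include 0. The order of the abundant members along Myog thus ran from Jund through Junb, Egr1 and Jun to Ier2, although the intervals of Jund and Junb, and of Junb and Egr1, overlapped.

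**Figure D2:**
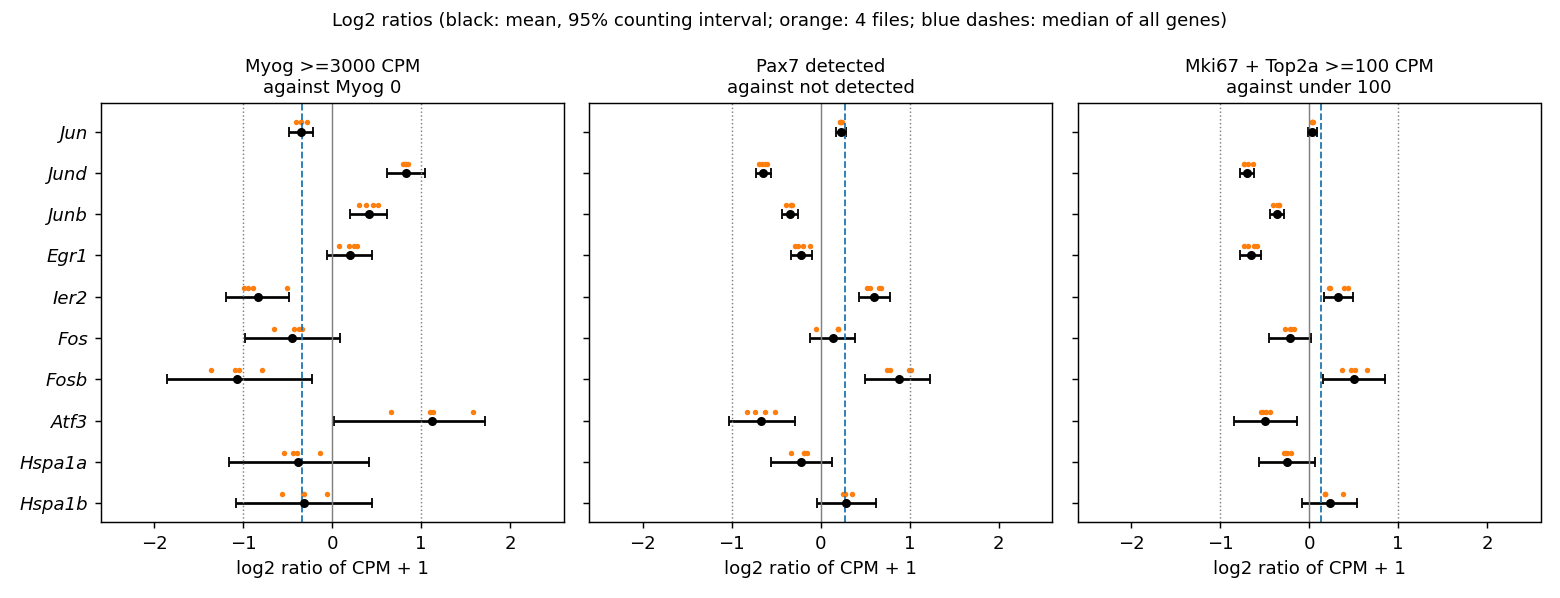
Log2 ratio of CPM plus 1 (x axis) of the 10 genes (rows) in 3 contrasts between cells; black points and bars are means with 95% counting intervals, orange points the 4 files, blue dashes the median of all genes and dotted lines the call at 1 and -1. In the Myog contrast Atf3 lies at 1.12 and Fosb at -1.07, and no gene passes the dotted lines in the other panels.

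Pax7, the transcription factor that marks muscle stem cells, was detected in at least 2 files in 2233 cells and in none in 2491 cells. None of the 10 members was called, against 14.1% of all genes called higher and 5.54% called lower. Fosb had the highest log2 ratio, 0.89 (0.50 to 1.23), with 2.47 CPM where Pax7 was detected against 0.880. Ier2 was at 0.60 (0.43 to 0.78), or 21 against 13.5 CPM, and Jun at 0.22 (0.17 to 0.28), below the median of all genes at 0.28. Fosb and Ier2 thus stood on the side of Pax7, and the Jun relatives Jund and Junb on the other. Jund was at -0.64 (-0.73 to -0.56), or 64.4 against 101 CPM, Junb at -0.34 (-0.43 to -0.26) and Atf3 at -0.68 (-1.04 to -0.29). Fos, Hspa1a and Hspa1b had intervals that include 0. Across cells with Pax7 in 0, 1, 2, 3 and 4 files, Jund stood at 101, 81.4, 73.4, 65.3 and 57.5 CPM. Detection of Pax7 also depends on depth, and the median was 12197 UMIs with Pax7 against 10419 without, whose part in the result was not tested.

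Since Pax7 and Myog are expressed in opposite cells, the Pax7 contrast was repeated in cells with Myog under 300 CPM. Jund was then at -0.15 (-0.47 to 0.17) in cycling and -0.13 (-0.42 to 0.16) in non-cycling cells, and Ier2 at 0.06 and -0.28, with intervals that include 0. Egr1 turned from -0.22 over all cells to 0.48 (0.01 to 0.98) in cycling and 0.62 (0.15 to 1.12) in non-cycling cells of low Myog. There it stood at 44.8 CPM in 614 non-cycling cells with Pax7 against 28.8 in 165 without. The median of all genes in these strata was 0.18 and 0.23, inside both Egr1 intervals. Egr1 thus did not stand apart from the median gene there beyond counting error. Both Jund intervals ended below these medians, in cycling cells only just, so Jund stayed lower than the median gene. Junb did so too, at -0.21 (-0.49 to 0.07) in cycling and -0.25 (-0.53 to 0.04) in non-cycling cells.

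Proliferation was followed through the summed CPM of Mki67 and Top2a, proteins of dividing cells. The 2343 cells at 100 CPM and over, called cycling here, were set against the 3138 cells below. None of the 10 members was called, against 8.0% of all genes called higher and 4.86% called lower. Jund had a log2 ratio of -0.70 (-0.78 to -0.62), with 61.7 CPM in cycling cells against 101. Egr1 was at -0.66 (-0.77 to -0.54), with 27.0 against 43.1 CPM, Atf3 at -0.50 (-0.84 to -0.14) and Junb at -0.36 (-0.44 to -0.28). These 4 were higher outside the cycling cells. Fosb was at 0.50 (0.16 to 0.85) and Ier2 at 0.32 (0.17 to 0.49), while Jun was at 0.04 (-0.02 to 0.09). The intervals of Fos, Hspa1a and Hspa1b included 0. The median of all genes was 0.13. Cycling cells were deeper, with a median of 12408 against 10354 UMIs, and had less Malat1, a nuclear RNA, at 6190 against 10568 CPM, and their part in the result was not tested.

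Within Myog bins the difference in Jund between cycling and non-cycling cells held its sign in all 5, from -0.60 (-0.75 to -0.45) below 300 to -0.29 (-0.51 to -0.07) at 3000 and over. Egr1 differed most at the top of the axis. In cells of Myog 3000 and over it stood at 57.2 CPM in 1397 non-cycling cells and 22 in 165 cycling cells, a log2 ratio of -1.35 (-1.78 to -0.93), with files from -1.53 to -1.14. At 1000 to under 3000 the same ratio was 0.01 (-0.30 to 0.32), and at Myog 0 it was -0.58 (-1.06 to -0.10). The high right end of Egr1 was therefore a feature of the non-cycling cells, in which Egr1 stood at 57.4 CPM at Myog 0 and 57.2 at 3000 and over. Ier2 showed the same side at the top, with 15.0 CPM in non-cycling against 7.49 in cycling cells (-0.93, -1.63 to -0.24, from 15.5 UMIs per file in the latter). Hspa1a stood at 1.56 CPM in cycling against 4.58 in non-cycling cells of Myog 1000 to under 3000 (-1.14, -1.81 to -0.36). That rests on 9.25 and 35.75 UMIs per file. Hspa1b went the other way above 0 and under 300 (0.71, 0.10 to 1.28). For each of these 2 genes the intervals of all other bins included 0.

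Along Myog within cycling cells, Ier2 was at -1.62 (-2.44 to -0.83) and Fos at -1.38 (-2.41 to -0.29), with 3.88 against 11.4 CPM of Fos from 8 and 20.75 UMIs per file. Within non-cycling cells Ier2 was at -0.82 (-1.31 to -0.30) and Fos at -0.06 (-0.91 to 0.85). Egr1 was at -0.77 (-1.32 to -0.22) in cycling and 0.003 (-0.34 to 0.34) in non-cycling cells. The median of all genes was -0.19 in cycling and -0.30 in non-cycling cells. Fos was thus lower at high Myog in cycling cells, which the pooled cells did not show. That rests on few UMIs, and the upper limit of -0.29 lies close to the median gene. The difference between both strata was not tested.

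**Figure D3:**
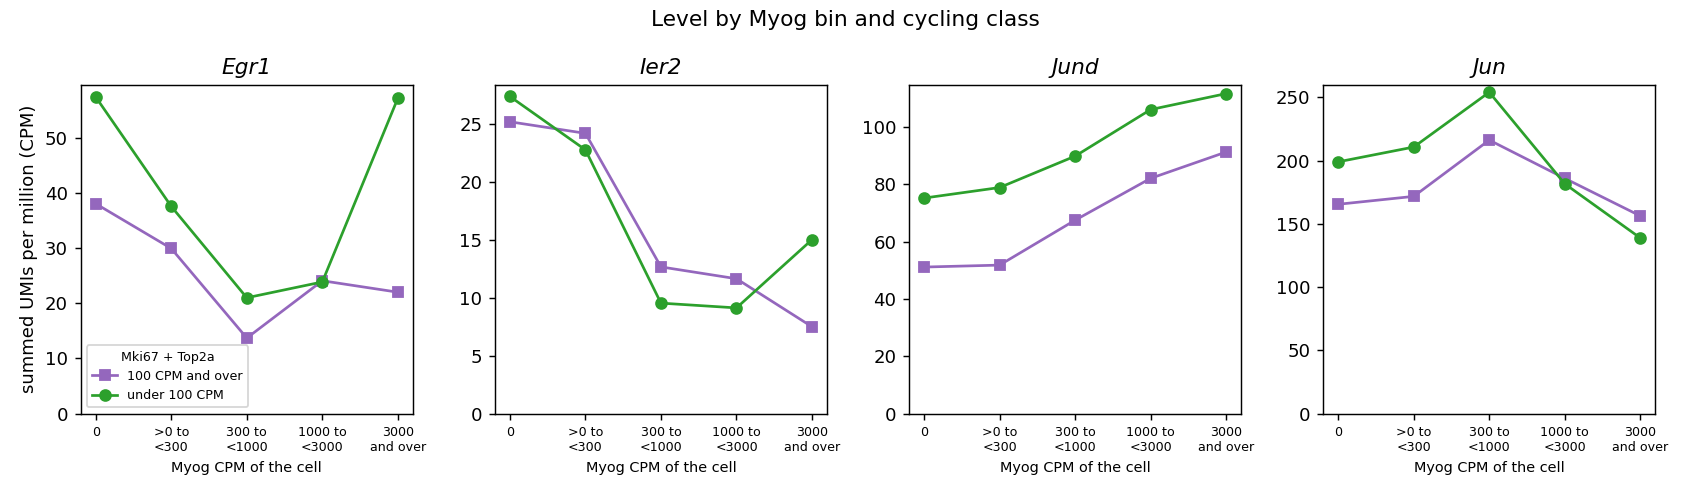
CPM (y axis) of Egr1, Ier2, Jund and Jun in 5 bins of the cell's Myog CPM (x axis), in cells with summed Mki67 and Top2a of at least 100 CPM (purple squares) and under 100 CPM (green circles); values are means of the 4 files. Egr1 separates at the right end, with 57.2 against 22 CPM, while Jund is higher in the non-cycling cells of every bin.

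Whether the genes went up together was examined in the 5197 thinned cells, with the Pearson correlation of log2(UMIs + 1) summed over the 4 files as a description. The 45 pairs had a median r of 0.011 and ranged from -0.063 to 0.338. Only 5 pairs exceeded 0.1. These were Egr1 with Ier2 at 0.338, Fos with Egr1 at 0.194, Junb with Egr1 at 0.179, Hspa1a with Hspa1b at 0.164 and Fos with Ier2 at 0.119, and Junb with Ier2 was just below at 0.0999. For scale, Mki67 with Top2a reached 0.813, Myog with the muscle actin gene Acta1 0.764 and Pax7 with the myoblast factor Myf5 0.356. All these genes were read from the same libraries at the same thinned depth, but not at the same abundance. Between files, Myog and Acta1 correlated with themselves at 0.946 and 0.945, and Fos and Ier2 at 0.231 and 0.230. Egr1 at 0.494 lay above Pax7 at 0.369 and Myf5 at 0.353. Sparse counts limit the r of most members, so the first 2 benchmarks are not a like scale for them.

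The pairs were ordered around Egr1. Fos with Junb had an r of only 0.079, little above the 0.071 of Junb with Jund. Egr1 was seen in 46.4% of cells with Ier2 (43.5 to 49.3) and in 18.7% of cells without (17.5 to 20.0). Fos was seen in 17.5% of the 1292 cells with Egr1 (15.5 to 19.7) and in 7.25% of the 3905 cells without (6.45 to 8.11). Within cells of 1 Myog bin and 1 cycling class the r of Egr1 with Ier2 was 0.328, that of Fos with Egr1 0.189 and that of Junb with Egr1 0.161. The benchmark pairs fell in the same strata to 0.242, 0.141 and 0.0945. The first is built from the genes that define the cycling class, and the second holds Myog, which defines the bins. Pax7 itself went from 121 CPM at Myog 0 to 4.36 at Myog 3000 and over. The fall of the benchmarks is therefore no measure for the pairs around Egr1. Single files gave lower values, such as 0.173 for Egr1 with Ier2, since each holds fewer UMIs.

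Jun stood outside this group, with r of -0.063 to Egr1 and -0.054 to Ier2, the 2 lowest of all pairs. Jund had r of 0.032 to Egr1, and Fosb and Atf3 lay between -0.023 and 0.033 with every other member. The 16 pairs of an immediate early gene with Hspa1a or Hspa1b lay between -0.013 and 0.021. Hspa1a was seen in 14.7% of the 225 cells with Hspa1b (10.3 to 20.0) and in 3.52% of cells without (3.02 to 4.07). The heat shock pair therefore went together, and neither copy went with the immediate early genes at this depth.

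**Figure D4:**
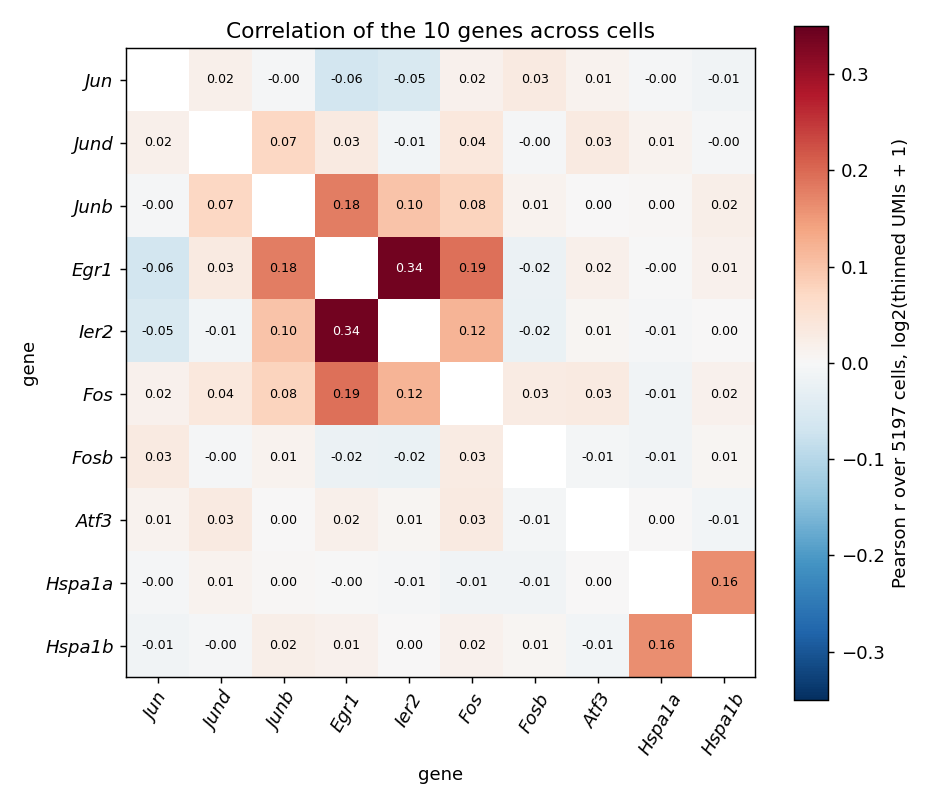
Pearson r (colour and printed value) between the 10 genes across 5197 cells, from log2(thinned UMIs + 1) summed over the 4 files. Egr1, Ier2, Fos and Junb form a block with r from 0.08 (Fos with Junb) to 0.34 (Egr1 with Ier2), highest for the pairs with Egr1. The heat shock pair stands at 0.16, while all pairs outside them lie between -0.06 and 0.07.

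The same thinned counts were also described as high cells. A cell was placed in a gene's high class if its thinned count lay above the 90th percentile of all cells, which for Egr1 meant more than 2 UMIs over the files and 516 cells. For Fos, Fosb, Atf3, Hspa1a and Hspa1b any UMI sufficed, and for Jun more than 8 were needed. In these Egr1-high cells 26.7% (23.0 to 30.8) were also high for Ier2, against 5.83% (5.18 to 6.54) of the other 4681 cells. For Fos the shares were 22.9% (19.3 to 26.7) against 8.35% (7.58 to 9.18), and for Junb 16.3% (13.2 to 19.8) against 6.64% (5.95 to 7.40). For Jund they were 10.1% (7.62 to 13) against 6.67% (5.97 to 7.42), a smaller difference but without overlap. For Jun they were 5.43% (3.64 to 7.75) against 7.65% (6.90 to 8.45), with overlapping intervals. Hspa1a was high in 4.65% (3.0 to 6.84) against 3.93%, Hspa1b in 4.84% against 4.27%, Atf3 in 3.29% against 2.33% and Fosb in 1.55% against 2.48%, all overlapping.

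**Figure D5:**
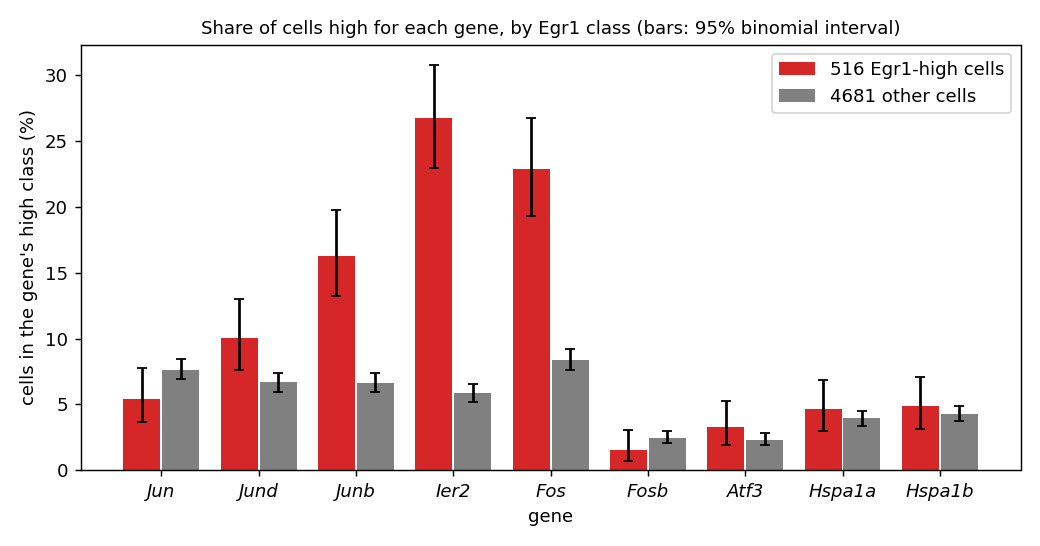
Share of cells in each gene's high class (y axis, percent) for 9 genes (x axis), in 516 Egr1-high cells (red) and 4681 other cells (grey), with 95% binomial intervals. Ier2, Fos and Junb are well above the other cells at 26.7%, 22.9% and 16.3%, Jund is less far above at 10.1%, and the heat shock genes overlap.

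Cells high for many members at once were few, but by definition each high class holds only 2.39% (Fosb) to 9.93% (Egr1) of cells. The number to be expected from unrelated members was not computed. No member was high in 56.1% of cells, 1 in 29.7%, 2 in 10.4% and 3 in 2.85%. In 46 of 5197 cells (0.885%, 0.649 to 1.18) 4 or more of the 10 were high, a threshold chosen after the counts were seen. In these 46 cells Egr1 was high in 82.6%, Fos in 73.9%, Junb in 69.6% and Ier2 in 58.7%. The 46 cells were picked from the counts that gave the correlations, and Egr1 and Fos have the largest high classes. These shares therefore add no support for the block described above. The remaining members were high in 6.52% (Fosb) to 34.8% (Jund). Of the 46 cells, 17.4% were cycling and 43.5% had Myog of 3000 CPM and over, against 43.9% and 28.8% of the others. Their median depth was 9791 UMIs against 11354 and their median mitochondrial share 4.35% against 3.62%. Across all cells the correlations of single members with the mitochondrial share lay between -0.064 for Ier2 and 0.073 for Egr1. The part of cell quality in these classes was not tested.

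Kept cells with Malat1 under 1000 CPM, 467 in number, had a median depth of 8676 UMIs. In them Ier2 was at 26.6 against 16.8 CPM (log2 ratio 0.63, 0.36 to 0.91) and Egr1 at 20.1 against 36.4 (-0.82, -1.13 to -0.53), with a median of all genes of -0.37. Low Malat1 thus went with opposite differences in the 2 genes that correlated most across cells. With those cells left out, Egr1 and Ier2 correlated at 0.346.

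The genes whose pattern across cells was most like each member were taken from all tested genes, members left out. For Egr1 these were Phlda1 at r = 0.256, Nab2 at 0.236 and Klf5 at 0.212. Nab2 encodes a corepressor that binds Egr proteins, and Phlda1 is itself a growth factor-induced gene. For Jund the nearest were Mylpf, a fast myosin light chain, at 0.259, the cell cycle inhibitor gene Cdkn1a at 0.251 and the small heat shock gene Hspb8 at 0.250. For Jun they were Lrrc17 at 0.235, the growth factor receptor gene Fgfr4 at 0.221 and Peg3 at 0.214. Junb was nearest to the phosphatase gene Dusp2 at 0.186, Ier2 to Morrbid at 0.184 and Fos to the cytokine signalling inhibitor Socs3 at 0.0964.

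For the scarcest members r is bounded by sparse counts, and such weak values are no finding. The summed Hspa1a and Hspa1b counts were nearest to Dnaja1 at 0.0953, Hspa8 at 0.0922, Hsp90aa1 at 0.0847, Got1 at 0.0833 and Chordc1 at 0.0818, of which 4 encode chaperones or cochaperones. The summed counts of the 8 immediate early genes were nearest to Ogn at 0.141, Des at 0.141, Actn3 at 0.140, Hivep2 at 0.135 and Cst3 at 0.130. None of the latter is an immediate early gene, and the sum is dominated by Jun, Jund and Junb.

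Other genes of the same pathways were counted from fixed lists. Of 30 tested immediate early genes outside the 10, 5 were called higher and 9 lower at Myog 3000 and over against Myog 0, beside the background shares of 8.78% and 23.4%. The strongest were Ccn2, a matrix protein gene induced by YAP and serum, at -3.60 (3.97 against 59.1 CPM), the Fos relative Fosl1 at -2.81 and Ier3 at -2.75. Their median was -0.43 against -0.34 for all genes. The Pax7 contrast was led by Fosl1 at 2.15, Ccn2 at 1.91 and Klf6 at 1.63, with 7 of the 30 higher and 4 lower, beside 14.1% and 5.54% of all genes. With cycling, 3 were higher and 3 lower, beside 8.0% and 4.86%, led by Fosl1 at 1.75 and Ier5 at 1.29.

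Among 16 other heat shock genes, 5 were called higher and 0 lower along Myog, beside 8.78% and 23.4% of all genes, with a median of 0.37 against -0.34 for all genes. Hspb8 stood at 586 against 54.8 CPM (log2 ratio 3.40), Cryab, the small heat shock protein of muscle, at 1921 against 546 (1.81), and Hsph1, a cochaperone of HSP70, at 225 against 77.9 (1.52). All 3 were far above the 2.38 and 2.77 CPM of Hspa1a and Hspa1b in the same cells. With Pax7 0 were higher and 3 lower, beside 14.1% and 5.54% of all genes, and with cycling 0 higher and 3 lower, beside 8.0% and 4.86%, namely Hspb8, Cryab and Hspb1 in each. Hspa1a and Hspa1b had ratios of -0.38 and -0.32 along Myog.

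Of 14 upstream regulators, 1 was called higher and 4 lower along Myog, near the 8.78% and 23.4% of all genes. The higher one was the heat shock factor gene Hsf2 at 1.69 (67.1 against 20.1 CPM), and the lower ones were led by the kinase gene Mapk3 at -2.23 (12.6 against 63.0 CPM) and the serum response cofactor gene Elk3 at -1.98. Of 8 genes of the integrated stress response, 2 were higher and 2 lower beside the same shares, with Ddit4 at -2.47 and Asns at 1.13. Of 8 metal and oxidative stress genes, 0 were higher and 6 lower, again beside 8.78% and 23.4% of all genes, with the metallothionein gene Mt2 at -2.83 (37.5 against 272 CPM) and Mt1 at -2.53. With Pax7, 5 of these 8 were higher and 0 lower, beside 14.1% and 5.54% of all genes.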

How the data were processed

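Single-cell UMI counts of 4 samples were analysed, all of sorted MyoD-tdTomato high cells. The authors deposited raw UMI counts per gene and barcode, and the file headers name Cell Ranger 7.1.0. The submitters' processing notes name Cell Ranger 3.1.0 and the builds mm10 and GRCm39, without roles. Annotation, barcode calling, strand and intronic reads are not given in the sources used here. The files totalled between 62627341 and 68898900 UMIs. The members and gene lists were chosen with earlier results of these data known. CPM came from summed UMIs of kept cells per file, averaged over files. Because the files share cells and molecules, no test was run, and intervals (exact Poisson, binomial and conditional binomial, 95%) sit at the mean count of 1 file. Named list genes are the 3 largest absolute log2 ratios per list, and named similar genes the nearest by r. Of gene IDs, 99.6% matched GENCODE M21. No doublet caller was used. Contrast and correlation code was tested on simulated data. Tools were Python 3.11.15, numpy 2.4.6, scipy 1.17.1 and pandas 2.3.3. Alternatives covered filters, depth, Malat1, files, totals, scaling, pseudocount, class edges and correlation method. The result of 1 further marker list is not reported here.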

Additional observations from a re-analysis of the deposited data

Results flagged for a closer look

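The 4 files were compared for each level and each log2 ratio of the 10 genes, 40 sets of values, and 2 had 1 file far from the others. The log2 ratio of Fos with Pax7 was -0.054 in 1 file against 0.19 to 0.20 in the others. That of Hspa1b with cycling was 0.38 in 1 file against 0.176 to 0.180 in the others. Chance flags about 5% of such sets, so 2 of 40 is the number chance gives. The files hold the same cells, so such gaps are between files and not between animals.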

How the results depend on the processing

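The 30 log2 ratios kept their sign in all 14 alternatives with 4 exceptions. These were Hspa1b with Myog (up to 0.02), Fos with Pax7 (down to -0.14), Jun with Pax7 (down to -0.05) and Jun with cycling (down to -0.09). Levels stayed between 0.880 and 1.06 times their values. The call of 1 member higher along Myog became 0 with a mean of the cells' own CPM, a pseudocount of 10 CPM or equal-sized tertiles of cells by Myog, and 2 (Atf3 and Jund) with the median of all genes subtracted. Without 1 replicate it ranged from 0 to 1. The call of 1 member lower became 0 with that subtraction, that pseudocount or those tertiles, and ranged from 0 to 1 without 1 replicate. No member was called with Pax7 or cycling under any alternative. The median r of 0.011 was 0.0066 in cells of at least 2000 genes and under 5% mitochondrial UMIs, 0.0047 in single files and 0.0032 to 0.0093 without 1 replicate. The r of Egr1 with Ier2 was 0.353 without the 5% deepest cells, 0.296 by Spearman, 0.173 in single files and 0.294 to 0.313 without 1 replicate, where fewer UMIs were summed. With a pseudocount of 10 CPM, called shares of all genes were 4.69% and 8.42% along Myog, 4.32% and 2.55% with Pax7, and 3.41% and 2.07% with cycling (higher and lower). Higher shares with Pax7 were 8.44% after subtraction and 7.96% with detection after thinning. No paired analysis was possible because there is 1 group. Depth limits Fosb, Atf3, Hspa1a and Hspa1b, with a mean of at most 205 UMIs per file each.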
